A study of Mus musculus with 4 samples.

Results

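The 9 genes Nes, Vim, Slc1a3, Sparc, Vcam1, Ptprz1, Tnc, Ednrb and Mfge8 are widely used as markers of radial glia, and they were selected by name from the 43346 genes counted. Their UMI counts (unique molecular identifiers, 1 per captured RNA molecule) were read in 4 droplet-based single-cell RNA sequencing libraries from the forebrain of wild-type (WT) C57BL/6 mouse embryos at E12.5. The regions were the dorsal cortex (CTX) and the ventral swellings called ganglionic eminences, namely the lateral (LGE), the medial (MGE) and the caudal one (CGE), with 1 library a region made from the pooled tissue of several embryos. No region had a replicate, so no test was made between regions and all intervals given cover counting error only.

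Radial glia are the neural stem cells of the embryonic brain. Their cell bodies line the ventricle, their long fibres span the wall of the brain, and Notch signalling, read out by the target gene Hes5, keeps them undifferentiated. As a daughter cell becomes a neuron it switches off Hes5 and switches on Dcx, which encodes the microtubule-binding protein doublecortin of young migrating neurons. The cortex gives rise to glutamatergic neurons and the ganglionic eminences to GABAergic neurons. Nes and Vim encode the intermediate filaments nestin and vimentin of the radial fibre. Slc1a3 encodes the glutamate transporter GLAST. Ptprz1 is a receptor-type phosphatase for the growth factors pleiotrophin and midkine. Ednrb is the endothelin receptor type B, and Vcam1 is a cell adhesion molecule that binds integrins. Sparc, Tnc (tenascin C) and Mfge8 encode secreted or matrix proteins.

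Cells were placed by Hes5 and Dcx alone, so none of the 9 genes took part in the gates. Hes5-positive cells held at least 1 Hes5 UMI and had Dcx not above 1.5 in ln(1 + UMIs per 10000), and high-Dcx cells had Dcx above 1.5 and no Hes5 UMI. In the order CTX, LGE, MGE and CGE, the libraries held 1733, 1166, 1153 and 404 Hes5-positive cells and 729, 1876, 1948 and 2096 high-Dcx cells. The median depth was 8497 to 9681 UMIs in Hes5-positive cells and 6296 to 7990 in high-Dcx cells. A level is given as counts-per-million (CPM) of the summed UMIs of a class. The regional labels were checked against known markers: Emx1 reached 193 CPM in CTX and at most 4.61 elsewhere, Nkx2-1 reached 794 CPM in MGE and at most 52.3 elsewhere, Ebf1 was highest in LGE at 398 CPM, and Nr2f2 was highest in CGE at 585 CPM. Pairs of libraries shared 4 to 15 cell barcodes.

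All 8 members with enough counts to be tested fell from Hes5-positive to high-Dcx cells, and each was lower in 4 of 4 libraries. The fall was tested on the sums of the 4 libraries with the library as a block (edgeR quasi-likelihood test, Benjamini-Hochberg adjustment over 13090 genes), where 29.1% of all genes tested were called lower and 28.3% were called higher. The median log2 fold change was -4.82 over the 8 members and 0.0034 over all genes tested. Sparc, Vcam1 and Ednrb retained less than 5% of their level in every library. Slc1a3 and Mfge8 did so in all but CTX (Slc1a3, 10.9%) and LGE (Mfge8, 8.56%). Nes and Vim retained 7.80 to 36.0%, and the remainder of Ptprz1 differed between regions. The ninth member, Tnc, was too rare to be tested.

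The sequence upstream of the genes was read for motifs of factors known in radial glia. RefSeq promoter windows (250 bases before to 50 after a start, build GRCm38.p6) were found for 8 of the 9 genes, 9 windows in all. Both strands were searched for TGGGAA, the core bound by the Notch effector RBPJ, for ACAAAG of SOX factors and for TTGGCA of nuclear factor I. These letters are in 25.6%, 18.7% and 14.1% of 32851 promoter windows. The windows of Nes, Vim, Slc1a3, Sparc, Ptprz1 and Ednrb held none of the 3, that of Mfge8 held TGGGAA 1 time, and those of Tnc held TGGGAA and TTGGCA. A match is a description of the letters only. The windows below are those of the member with the largest fall (Sparc, chr11:55420031-55420330, minus strand), of the member with the widest regional range among the 8 tested and the largest remainder in CTX (Ptprz1, chr6:22875252-22875551, plus strand) and of the 2 with matches (Tnc, chr4:64046887-64047186, and Mfge8, chr7:79149011-79149310, both minus strand), written 5′ to 3′ along the gene with matches in capitals. They differ in base composition, with a GC content of 71.7% for Ptprz1, 64.3% for Mfge8, 55.3% for Sparc and 54.0% for Tnc.
Sparc: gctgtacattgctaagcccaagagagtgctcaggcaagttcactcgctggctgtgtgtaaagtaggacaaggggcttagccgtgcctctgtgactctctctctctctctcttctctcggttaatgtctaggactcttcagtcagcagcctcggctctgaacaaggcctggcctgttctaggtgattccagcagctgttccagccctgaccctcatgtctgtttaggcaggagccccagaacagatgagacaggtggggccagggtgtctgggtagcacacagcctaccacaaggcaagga
Ptprz1: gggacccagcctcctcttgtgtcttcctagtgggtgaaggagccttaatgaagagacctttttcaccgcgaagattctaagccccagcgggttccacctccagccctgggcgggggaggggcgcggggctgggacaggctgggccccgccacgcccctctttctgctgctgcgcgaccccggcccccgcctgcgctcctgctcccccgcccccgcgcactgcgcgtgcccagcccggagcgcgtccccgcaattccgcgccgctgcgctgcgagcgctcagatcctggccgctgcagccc
Tnc: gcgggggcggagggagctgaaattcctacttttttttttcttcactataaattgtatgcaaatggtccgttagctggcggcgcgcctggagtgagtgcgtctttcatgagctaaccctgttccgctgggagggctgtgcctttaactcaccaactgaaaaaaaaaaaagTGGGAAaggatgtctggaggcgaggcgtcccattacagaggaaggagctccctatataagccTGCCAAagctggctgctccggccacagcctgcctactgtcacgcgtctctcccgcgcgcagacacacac
Mfge8: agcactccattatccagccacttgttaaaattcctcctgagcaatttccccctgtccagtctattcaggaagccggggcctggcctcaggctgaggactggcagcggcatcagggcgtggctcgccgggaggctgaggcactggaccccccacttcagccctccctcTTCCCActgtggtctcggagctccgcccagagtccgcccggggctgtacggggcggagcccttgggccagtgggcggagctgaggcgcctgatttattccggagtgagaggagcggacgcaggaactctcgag

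**Figure D1:**
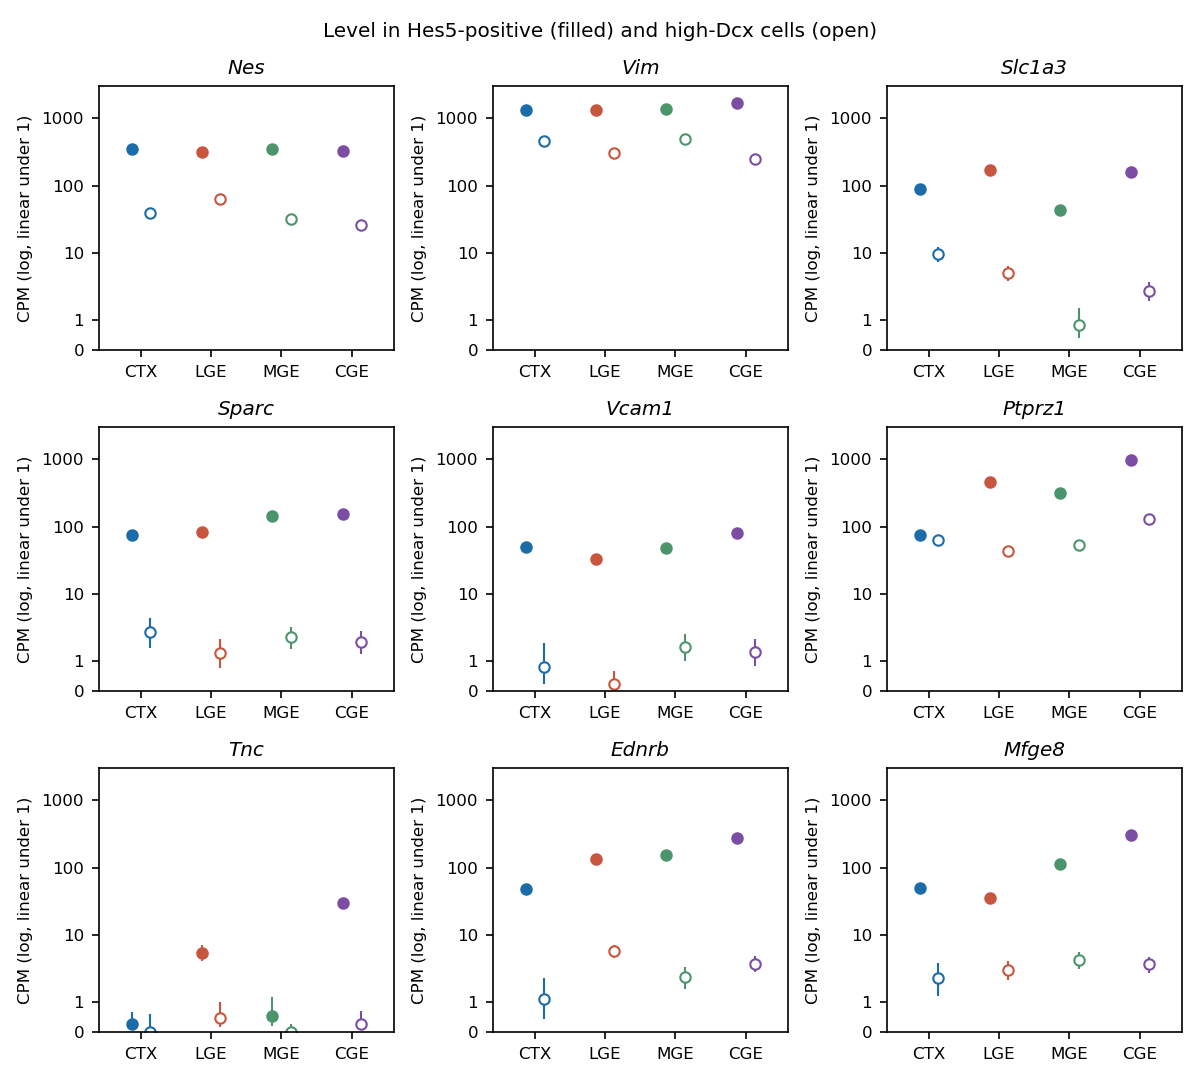
Level of each gene in CPM (vertical axis, logarithmic above 1 and linear below it) in Hes5-positive cells (filled) and high-Dcx cells (open) of the 4 libraries, with exact Poisson 95% intervals. Every filled point lies above its open point, with overlapping intervals for Tnc in CTX and MGE, and the pair lies closest together for Ptprz1 in CTX.

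Sparc, a secreted glycoprotein of the matrix, had the largest log2 fold change of the members, with Vcam1 and Ednrb within its error. In Hes5-positive cells its level was 153 CPM in CGE, 145 in MGE, 82.9 in LGE and 75.6 in CTX, and in high-Dcx cells it was 1.94, 2.27, 1.32 and 2.76 CPM. High-Dcx cells thus retained 3.65% (95% interval 2.12 to 5.87) of the Hes5-positive level in CTX and 1.26% (0.83 to 1.84) in CGE, with LGE and MGE in between. The log2 fold change was -5.79 (SE 0.26, adjusted p = 0.000261), and 10 of the genes tested fell further. The cells removed as endothelial, mesenchymal or microglial, 16 to 62 per library, held 1150 to 2113 CPM of Sparc, far above the Hes5-positive cells, and 1065 to 1387 CPM of Vim. Keeping those cells changed the log2 fold change to -5.70.

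Vcam1 was found at 81.4 CPM in CGE, 50.4 in CTX, 48.7 in MGE and 32.7 in LGE Hes5-positive cells. In high-Dcx cells it was close to absent, with 20, 5, 21 and 3 UMIs in all. Its log2 fold change was -5.70 (SE 0.30, adjusted p = 0.0003), and the remainder ran from 0.71% (0.15 to 2.10) in LGE to 3.37% (2.07 to 5.21) in MGE. Vcam1 was highest in CGE, 1.61-fold (1.41 to 1.85) above CTX, which did not differ from MGE beyond counting error (ratio 1.04, 0.93 to 1.16).

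Ednrb rose in the order CTX, LGE, MGE and CGE in Hes5-positive cells, at 48.7, 132, 154 and 277 CPM. Each step in this order exceeded counting error, and CGE was 5.70-fold (5.17 to 6.28) above CTX. In high-Dcx cells the level was 1.14, 5.76, 2.35 and 3.73 CPM, and thus the region with the highest progenitor level was not the region with the highest remainder. LGE retained 4.36% (3.40 to 5.51), against 1.35% (1.00 to 1.77) in CGE. For Ednrb the log2 fold change was -5.50 (SE 0.35, adjusted p = 0.000355).

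Mfge8, a secreted protein that binds integrins and phosphatidylserine, had the second widest regional range of the 8 tested members. It reached 300 CPM (8.48-fold above LGE, 7.53 to 9.56) in CGE Hes5-positive cells, 111 in MGE, 49.5 in CTX and 35.4 in LGE. In high-Dcx cells the range was narrower: the levels ran from 2.27 CPM in CTX through 3.03 (LGE) and 3.66 (CGE) to 4.22 in MGE, and no neighbours in the order differed beyond counting error, while MGE was 1.86-fold (1.02 to 3.62) above CTX. The remainder was therefore smallest where the progenitor level was highest, at 1.22% (0.91 to 1.61) in CGE against 8.56% (5.99 to 11.9) in LGE. Mfge8 had a log2 fold change of -4.81 (SE 0.49, adjusted p = 0.000929).

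Slc1a3 was high in LGE (172 CPM) and CGE (157 CPM), which did not differ beyond counting error (ratio 1.09, 0.99 to 1.20), lower in CTX (87.9) and lowest in MGE (43.1). In high-Dcx cells the order was different, with 9.58 CPM in CTX, 5.06 in LGE, 2.70 in CGE and 0.86 in MGE. CTX retained 10.9% (8.24 to 14.1), whereas the eminences retained 1.71 to 2.94%. The log2 fold change over the libraries was -4.82 (SE 0.49, adjusted p = 0.000927), and it was -5.43 without CTX. Slc1a3 overlaps the gene model Gm37310 on the same strand, so its count is uncertain to that extent.

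Barcodes with at least 20% of UMIs from red blood cell genes, mainly globins, were taken as red blood cells, 21 to 168 per library. They should lack these genes and gave a background. No gene, mitochondrial or doublet limit was applied to them, so barcodes that also held a neural cell were not removed. Most UMIs of the red blood cell barcodes were globin, so levels are given as CPM of their non-globin UMIs. In CTX they held 16.4 CPM (5.31 to 38.2) of Sparc, 9.82 (2.02 to 28.7) of Vcam1 and of Ednrb, 29.5 (13.5 to 55.9) of Mfge8 and 39.3 (20.3 to 68.6) of Slc1a3. Each of these values was above the level in CTX high-Dcx cells, which is given on another base, the CPM of all their UMIs. In LGE no UMI of the 5 genes was found in these barcodes (upper limit 40.5 CPM), and in MGE they held 121 CPM of Ednrb and 218 of Mfge8. The MGE values of Ednrb and Mfge8 each came from only 2 of 58 barcodes, so they do not give an even background. In CTX each of the 5 genes was found in 3 to 6 of 168 barcodes. The part of free RNA in the remainders of the 5 genes was not tested.

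Nes, the classical marker of neural progenitors, was the most even of the 9 across regions. Its level in Hes5-positive cells was 353 CPM in MGE, 344 in CTX, 331 in CGE and 310 in LGE, a range of 1.14-fold (1.09 to 1.19). In high-Dcx cells it was 63.1 CPM in LGE, 38.6 in CTX, 32.3 in MGE and 25.8 in CGE, so that the regions that were alike as progenitors differed 2.45-fold (2.16 to 2.77) between LGE and CGE. LGE retained 20.3% (18.8 to 22.0) and the others 7.80 to 11.2%. Nes had a log2 fold change of -3.11 (SE 0.26, adjusted p = 0.000558).

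Vim had the smallest fall of the 8 tested members. Hes5-positive cells held 1678 CPM in CGE, 1356 in MGE, 1324 in LGE and 1319 in CTX. High-Dcx cells still held 248, 489, 302 and 460 CPM, which is 14.8% (14.2 to 15.4) for CGE, 36.0% (35.0 to 37.1) for MGE, 22.8% (22.0 to 23.7) for LGE and 34.9% (33.5 to 36.3) for CTX. Its log2 fold change was -1.93 (SE 0.24, adjusted p = 0.00157). With each cell thinned to 3000 UMIs, 65.4% of CTX high-Dcx cells (523 cells) and 34.6% of those in CGE (1665 cells) had a Vim UMI, against 96.1% and 91.0% of Hes5-positive cells. At full depth these shares were 87.2% and 47.3% against 99.4% and 96.3%. Red blood cell barcodes held 468 CPM (394 to 551) of Vim in CTX, 574 in MGE, 532 in CGE and 54.9 in LGE, among their non-globin UMIs, and of Nes 101 CPM (68.9 to 144) in CTX, 121 in MGE, 125 in CGE and 22.0 in LGE. In all but LGE these values were at or above those of high-Dcx cells, and the part of free RNA in the remainders was not tested. Nes was found in 4 of 58 red blood cell barcodes in MGE and in 2 of 21 in CGE. CGE was the region with both the highest Vim level before the fall and the lowest after it.

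Ptprz1 had a range of 13.1-fold (12.2 to 14.0) in Hes5-positive cells, from 73.9 CPM in CTX through 310 in MGE and 462 in LGE to 967 in CGE. Each step in this order exceeded counting error. In the 3 eminences the gene fell to 52.8 CPM in MGE, 43.2 in LGE and 129 in CGE, which left 17.01% (15.6 to 18.5), 9.34% (8.54 to 10.2) and 13.3% (12.6 to 14.1). In CTX, 63.5 CPM was left in high-Dcx cells, or 85.9% (76.4 to 96.5). The log2 fold change was -2.31 (SE 0.56, adjusted p = 0.0163). It was -2.93 without CTX (adjusted p = 0.000349) and missed the threshold without any one of the other libraries (-2.21, -2.08 and -1.91 without MGE, CGE and LGE, with adjusted p = 0.0677, 0.0742 and 0.0585).

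The remainder in CTX was not spread evenly over the high-Dcx cells, and the splits that show this were chosen after the values were seen. Eomes encodes the T-box factor of cortical intermediate progenitors. The 340 CTX high-Dcx cells with an Eomes UMI had 12.0 CPM (8.29 to 16.9) of Ptprz1, and the 389 without one had 105 CPM (94.1 to 116), more than the 73.9 CPM of Hes5-positive cells. A Ptprz1 UMI was found in 5.29% of the former and in 35.2% of the latter, at median depths of 7799 and 8373 UMIs, against 41.2% of Hes5-positive cells. The other members did not follow this split by as much: Vim was 505 and 424 CPM and Nes 48.9 and 30.4 CPM. Depth moved with the level too. With CTX high-Dcx cells split by depth into 4 equal bins, Ptprz1 stood at 120 CPM in the deepest bin (median 12706.5 UMIs) and at 12.2 to 44.2 CPM in the others. Counting each cell equally gave a remainder of 65.1%, thinning to 3000 UMIs gave 48.2%, and keeping cells above the upper limit of 4500 genes gave 114%. The size of the CTX fall thus changed with each of these settings and its direction with the last.

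The Ptprz1 level did not follow the type of neuron in the same way in CTX and CGE. The 668 CTX high-Dcx cells with a UMI of Neurod2 or Neurod6 and none of Gad2 or Dlx5 had 66.9 CPM (60.4 to 73.8), and the 45 cells of the opposite kind had 8.20 CPM (0.99 to 29.6, 2 UMIs). In CGE the corresponding values were 75.4 CPM (55.0 to 101, 74 cells) and 132 CPM (126 to 138, 1948 cells), and thus the order was the other way round. In LGE they were alike, at 44.5 CPM (16.3 to 97.0, 22 cells) and 42.8 CPM (39.3 to 46.6, 1835 cells). Median depths were 8219.5 and 5469 UMIs in CTX and 8051.5 and 6683 in CGE, and the part of depth was not tested. Cells removed as non-neural held 0 to 11.6 CPM of Ptprz1, below Hes5-positive and high-Dcx cells of each library, whereas red blood cell barcodes held 58.9 CPM (34.9 to 93.1) in CTX, 105 in MGE, 329 in CGE and 0 in LGE (upper limit 40.5), among their non-globin UMIs. The 18 Ptprz1 UMIs of the CTX red blood cell barcodes came from 6 of 168 barcodes. The MGE value came from 2 of 58 barcodes and the CGE value from 3 of 21. The part of free RNA in the Ptprz1 remainder was not tested.

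Most Tnc UMIs came from the CGE and LGE libraries. Hes5-positive cells held 108 Tnc UMIs in CGE (29.6 CPM) and 56 in LGE (5.39 CPM), a ratio of 5.49 (3.94 to 7.72), but 6 in MGE and 4 in CTX. In CGE 4 UMIs were left in high-Dcx cells, 0.93% (0.25 to 2.46) of the Hes5-positive level, and in LGE 6 UMIs were left (8.65%, 3.05 to 20.0). No UMI was found in high-Dcx cells of MGE or CTX. The interval of the remainder reached up to 73.2% in MGE, while in CTX it reached 367%, so that a fall in CTX was not detectable at this depth. Tnc overlaps the gene model 8030451A03Rik and Vcam1 overlaps Gm43109, each on the other strand, and strand-aware counting was not stated.

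**Figure D2:**
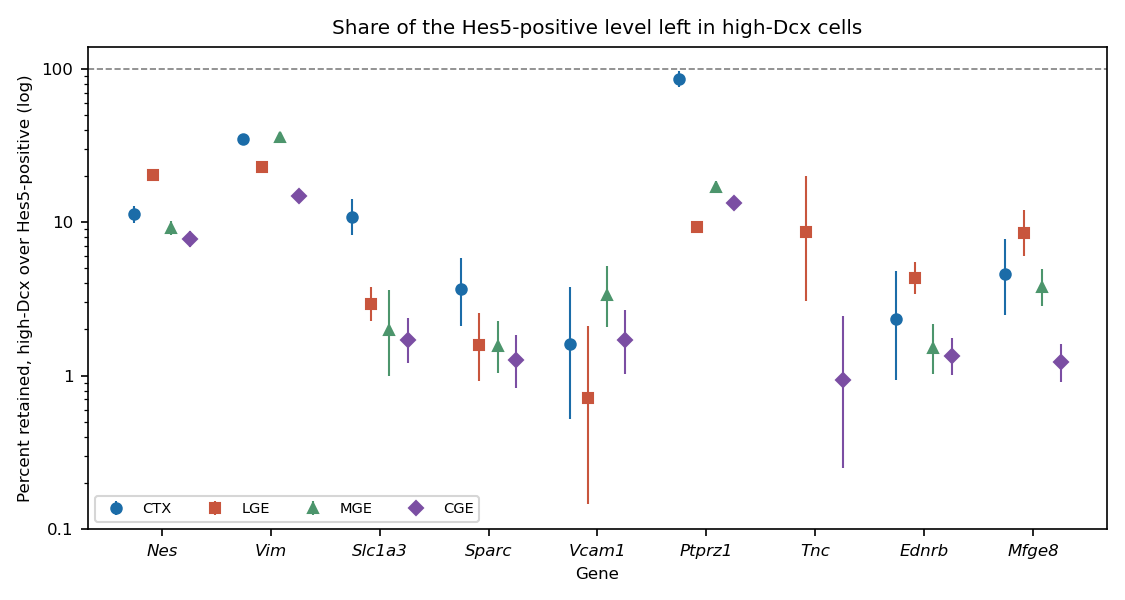
Percent of the Hes5-positive level left in high-Dcx cells (vertical axis, logarithmic) for each gene and library, with exact 95% counting intervals; libraries without a Tnc UMI in high-Dcx cells are left out. Vcam1, Sparc and Ednrb lie below 5% in every library, Vim lies between 14.8 and 36.0%, and Ptprz1 in CTX stands apart at 85.9%.

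The median over the 9 genes of the percent retained was 1.70% in CGE, 3.37% in MGE, 4.59% in CTX and 8.56% in LGE. These medians depend on Tnc in CTX, LGE and MGE, and the order of CTX and LGE changes with it. With Tnc set to the limit that 3 UMIs would allow in high-Dcx cells, they were 10.9% in CTX and 3.79% in MGE, and without Tnc they were 1.71% in CGE, 3.58% in MGE, 6.46% in LGE and 7.74% in CTX. CGE had the lowest value in each case. After thinning to 3000 UMIs the median number of the 9 genes detected per Hes5-positive cell was 2 in CTX, 3 in LGE and MGE and 4 in CGE, and it was 1 in high-Dcx cells of all 4 libraries. At least 5 of the genes were detected in 42.2% of CGE and 7.71% of CTX Hes5-positive cells, and in at most 0.19% of high-Dcx cells of any library.

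To follow the speed of the loss, cells were placed in 6 steps. Step 1 held Hes5 without a Dcx UMI, step 2 Hes5 with some Dcx, and step 3 Hes5 with Dcx above 1.5. Steps 4, 5 and 6 had no Hes5 and Dcx of 1.5 to 2.0, 2.0 to 2.5 and above 2.5. The steps order cells by these 2 genes, and not by time. At step 2 the median over the 8 genes other than Tnc was 68.3% of the step 1 level in CTX, 52.0% in CGE, 41.7% in LGE and 39.3% in MGE. At step 3, where Hes5 was still detected, it was 7.81, 5.39, 8.53 and 12.2%. The largest part of the step 1 level was thus gone in cells that held Hes5 and Dcx together. The median stood at 1.38% in CGE, 2.08% in LGE, 2.77% in MGE and 5.80% in CTX at step 6, and single genes fell further, as Mfge8 did in LGE from 18.0% at step 3 to 3.72% at step 5. The step 6 medians have no interval and rest on few UMIs. In CTX (61 cells) Ednrb had 1 UMI (0.14 to 30.2%), and Vcam1 and Mfge8 had 0. In LGE Mfge8 had 1 UMI and Slc1a3 had 6. The medians thus do not settle the order of the regions at step 6. Step 3 rests on few Hes5 UMIs, 81 in 74 cells of CTX and 229 to 397 in 189 to 251 cells of each eminence. Their Hes5 level of 133 to 221 CPM lay within the 43.9 to 348 CPM in the non-globin UMIs of red blood cell barcodes and above the 0 to 69.5 CPM of non-neural cells, and the part of free RNA in it was not tested.

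The genes kept different paces along these steps. Sparc was at 29.2 to 52.6% of its step 1 level at step 2 and at 1.65 to 6.24% at step 3. The point values of Ednrb and Slc1a3 also reached 10% or less at step 3 in all 4 libraries. Those of Vcam1 did so in all but MGE, where 16.5% (9.51 to 26.6) was left. In CTX they rest on 2 UMIs of Ednrb, 5 of Slc1a3 and 2 of Vcam1, with intervals up to 23.5, 21.4 and 22.7%. These CTX intervals pass 10%, and that of Vcam1 overlaps the MGE one. Nes went down in smaller steps. It was at 12.3 to 29.1% at step 3, and in LGE it still stood at 15.3% (11.9 to 19.4) at step 6. Vim never reached 10% in any library, and its step 6 values ran from 11.0% in CGE to 23.0% in CTX. Ptprz1 in CTX was at 96.0% (77.1 to 119) at step 2, 82.0% at step 3, 93.9% at step 4 and 79.1% at step 5, and it was first below 50% at step 6, with 33.2% (15.2 to 63.4, 9 UMIs in 61 cells). In LGE it was at 40.2% by step 2. Slc1a3 in CTX stood at 24.3% (10.5 to 48.1, from 8 UMIs) at the last step and at 8.57% (4.78 to 14.2) at the one before, and these intervals overlap.

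**Figure D3:**
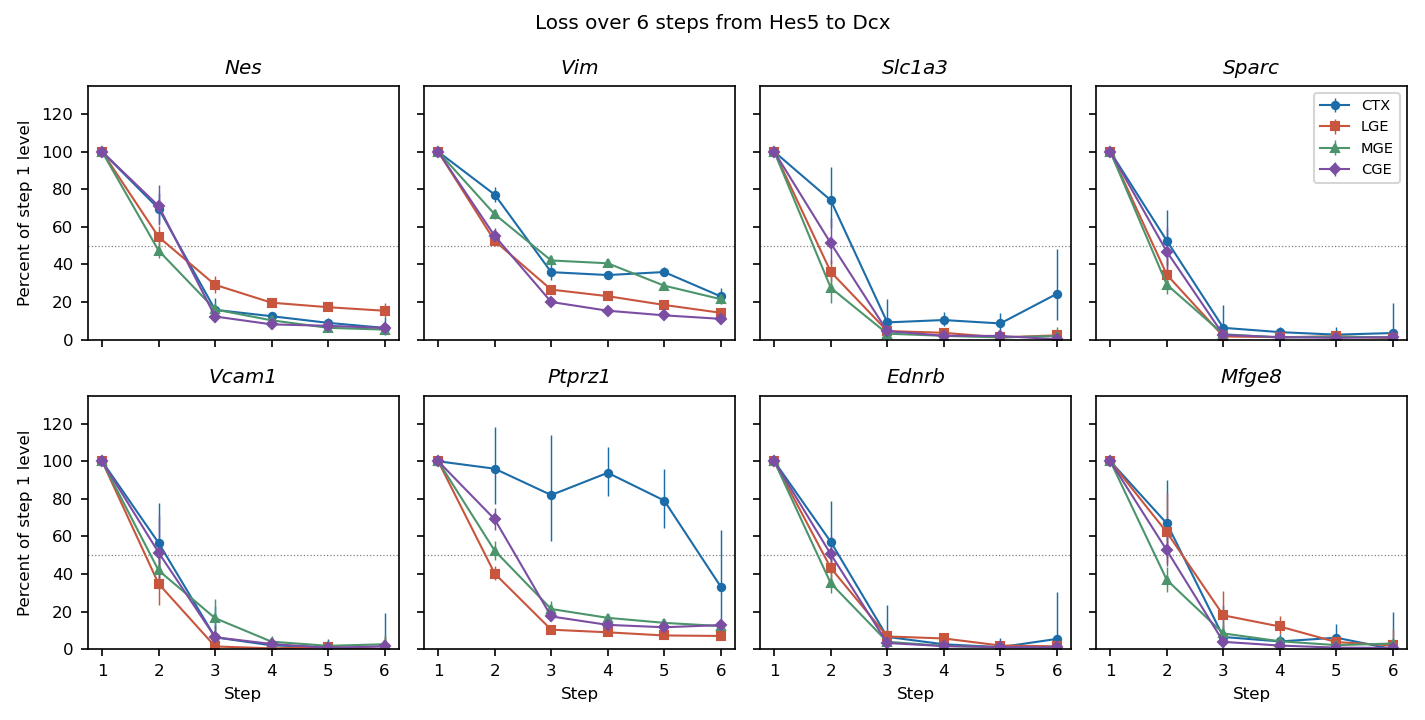
Percent of the step 1 level (vertical axis) of 8 genes at 6 steps from Hes5 without Dcx (step 1) to the highest Dcx without Hes5 (step 6), with exact 95% counting intervals and a dotted line at 50%. Most lines drop between steps 1 and 3, Vim stands between 11.0 and 23.0% at step 6, and Ptprz1 in CTX stays at 79.1% or more to step 5.

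The 24 points of library and step also served to name the gene most like each member outside the 9, as the highest Pearson r of log2(CPM + 1) among 4266 genes. Those 4266 genes had 50 CPM or more in Hes5-positive cells of at least 1 library, so rarer genes were not compared. The points share libraries and the same 2 gates, so r is a description only. The closest genes outside the 9 were Dtymk for Nes (r = 0.99), Ndufa12 for Vim (0.96), Zfp706 for Slc1a3 (0.95), E2f5 for Sparc (0.97), Ift74 for Vcam1 (0.96), Peg12 for Ednrb (0.97), Sept11 for Mfge8 (0.94), Ptx3 for Ptprz1 (0.94) and Veph1 for Tnc (0.91). Ptx3 and Veph1 overlap in the annotation, so their counts are uncertain. Among the members, Sparc and Vcam1 were the most alike (0.96) and Vim and Tnc the least (0.58). Mfge8 was closer to the member Vcam1 (0.95) than to Sept11.

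Other genes of radial glia mostly moved with the 9. Of 26 further radial glia genes, 20 were lower in high-Dcx cells, 0 were higher and 6 did not pass the test. The largest falls were those of the Notch target Hes1 (log2 fold change -6.00, SE 0.20), podoplanin (Pdpn, -5.38) and the RNA-binding protein gene Zfp36l1 (-4.99). The smallest differences were those of the adhesion gene Cdh2 (0.18, adjusted p = 0.142) and the glutamine synthetase gene Glul (-0.19, adjusted p = 0.188). The neuron genes ran the other way, with 9 of 10 higher, led by Ina (4.11), Mapt (3.99) and Stmn2 (3.75). Elavl4 rose by 1.38. Of the 9 genes of intermediate progenitors 4 were lower and 5 did not pass. Of all genes tested, 29.1% were lower and 28.3% were higher. Btg2 (-2.23) and Gadd45g (-1.80) were lower, and Mfng (-0.03, adjusted p = 0.938) and Dll3 (0.26, adjusted p = 0.795) were the closest to no difference.

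The partners of the 9 genes were in part lost with them. Of 12 listed ligands and receptors of their proteins 7 had enough counts, and 5 of these were lower, 1 was higher and 1 did not pass. The shares over all genes tested were 29.1% lower and 28.3% higher. The Ptprz1 ligands pleiotrophin (Ptn, -2.87, adjusted p = 0.00127) and midkine (Mdk, -1.68, adjusted p = 0.00171) fell, as did the integrin subunit gene Itgb5 (-3.43, adjusted p = 0.01001). Contactin 1 (Cntn1), a neuronal surface protein that binds Ptprz1, was higher in high-Dcx cells (3.31, SE 0.51, adjusted p = 0.00314). The integrin subunit gene Itgb1 did not pass (-0.51, adjusted p = 0.0623). The endothelins Edn1 and Edn3, ligands of Ednrb, were too rare to be tested, like Itgb3, Itga4 and Itga9. Of 7 genes of mature astrocytes, into which radial glia later turn, only Gja1 (-4.71, lower, adjusted p = 0.00231) and Sparcl1 (-1.20, adjusted p = 0.581) had enough counts, and Gfap, Aqp4, S100b, Aldh1l1 and Cd44 did not.

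Within the Hes5-positive cells, most of which held an Mki67 UMI, the 9 genes were also compared between cells with and without that marker of the cell cycle (edgeR quasi-likelihood test, 11141 genes). Of the 9, 2 were lower and 1 was higher in Mki67-positive cells, beside 12.4% lower and 11.0% higher of all genes tested. Mfge8 had the largest difference: Mki67-positive against Mki67-negative cells held 88.0 against 197 CPM in MGE, 255 against 388 in CGE, 33.1 against 42.9 in LGE and 47.6 against 53.8 in CTX. Its log2 fold change was -0.61 (SE 0.13, adjusted p = 0.00391), lower in 4 of 4 libraries. Vim fell by 0.22 on the log2 scale (adjusted p = 0.00547), with 1272 against 1666 CPM in MGE, 1246 against 1574 in LGE, 1267 against 1436 in CTX and 1652 against 1729 in CGE. Nes was higher by 0.24 (adjusted p = 0.0130), with 374 against 275 CPM in CTX, 323 against 270 in LGE, 356 against 345 in MGE and 339 against 314 in CGE. The 2 filament genes thus differed in opposite directions, both by little beside their fall with Dcx. Counting intervals of the ratio included no difference for Mfge8 in CTX, Vim in CGE and Nes in MGE and CGE.

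Slc1a3 was lower in 4 of 4 libraries, within counting error in CTX and CGE, and just missed the threshold (-0.28, adjusted p = 0.0510). The values of Sparc, Vcam1, Ptprz1, Ednrb and Tnc did not pass, with adjusted p of 0.238 to 0.636. Slc1a3 passed under 5 of the alternatives (adjusted p = 0.00332 to 0.0487), Vcam1 passed without MGE (0.39, adjusted p = 0.0330) and Ptprz1 passed after thinning to 3000 UMIs (0.19, adjusted p = 0.0466). The Nes call was lost without CTX (0.18, adjusted p = 0.0525) and the Vim call without LGE (-0.18, adjusted p = 0.0656). Mki67-positive cells were deeper, at median depths of 9290 to 10320 UMIs against 7336 to 7566, and 8 of the 10 neuron genes were lower in them; the part of either in these differences was not tested.

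**Figure D4:**
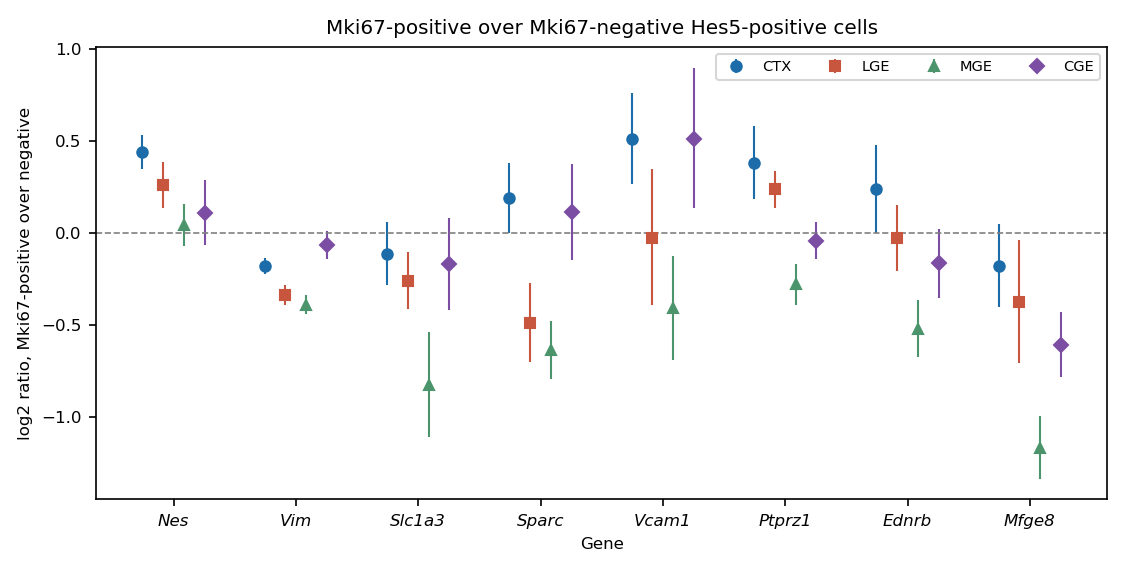
Log2 ratio of the level in Mki67-positive over Mki67-negative Hes5-positive cells (vertical axis) for 8 genes and 4 libraries, with exact 95% counting intervals and a dashed line at no difference. The points of Mfge8 and Vim lie below the line and those of Nes above it in every library, while Sparc, Vcam1 and Ptprz1 have libraries on both sides. The intervals reach the line for Mfge8 in CTX, Vim in CGE and Nes in MGE and CGE.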

How the data were processed

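The deposited values were raw UMI counts per gene and barcode, which the authors obtained from Cell Ranger (version 3.0.2 in the file headers and 3.0.0 in the submitters' processing notes) and aligned to mm10. The labels describe sorted live cells and the methods unsorted WT cells, which was not settled. Barcodes were kept with 1500 to 4500 genes, under 5% mitochondrial and under 1% Hbb UMIs. Doublets were scored against simulated pairs and removed at 0.8% per 1000 barcodes, and cells with 3 or more genes of an endothelial, mesenchymal or microglial list were removed. In the order CTX, LGE, MGE and CGE, 3492, 4653, 4713 and 3180 cells were left, with a median of 6939 to 8227 UMIs. The CTX library lost 40.4% of its 6953 barcodes to the lower gene limit, the others 14.3 to 22.6%.

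Counts were summed per class and library and tested with edgeR 4.0.16 (quasi-likelihood, TMM, filterByExpr, library as a block). DESeq2 1.42.0 was an alternative. The 4 libraries are of different regions, so the p-values describe a contrast shared by regions. CPM and ratios carry exact Poisson 95% intervals and shares Clopper-Pearson intervals. All cover counting error only. The test recovered 100% of 200 genes changed in simulated counts, all of them well expressed. Called as well were 10 unchanged genes in the stage simulation and 9 in the cycle simulation. The simulated counts varied less between libraries than those of the stage test, so the recovery does not give the power of that test. The members and lists were chosen with earlier results of these data known. From each list the 3 largest and 2 smallest log2 fold changes are named, and for each member the gene most alike; 2 list genes this rule names are not reported here. Gene positions came from GENCODE M21 by gene ID, which matched 42462 of 43346 features.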

Additional observations from a re-analysis of the deposited data

Results flagged for a closer look

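For 3 of the 9 genes the ratio of Mki67-positive over Mki67-negative Hes5-positive cells lay above 1 in some libraries and below 1 in others, with counting intervals that exclude 1 on both sides. The difference between the libraries was not tested, since each region has 1 library. For Sparc the ratio was 1.14 (1.00 to 1.30) in CTX, 0.713 (0.616 to 0.828) in LGE and 0.643 (0.577 to 0.718) in MGE. For Vcam1 it was 1.43 (1.20 to 1.70) in CTX and 1.42 (1.10 to 1.87) in CGE, but 0.753 (0.620 to 0.918) in MGE. For Ptprz1 it was 1.30 (1.14 to 1.50) in CTX and 1.18 (1.10 to 1.27) in LGE, but 0.824 (0.762 to 0.891) in MGE. MGE was on the low side in all 3 genes and CTX on the high side.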

How the results depend on the processing

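The counts of genes called in the stage test stayed within 1.5 times under all 14 alternatives, and the 8 tested genes kept their direction and their call, apart from Ptprz1 without MGE, CGE or LGE (range over the libraries left out -2.93 to -1.91). In the cycle test 585 genes were lower and 706 higher with DESeq2, and 535 and 569 after thinning to 3000 UMIs, against 1378 and 1230. Leaving out 1 library gave 710 to 1015 lower and 873 to 1091 higher, with the fewest without LGE. The cycle value of Sparc turned to 0.018 with no upper gene limit and that of Ednrb to 0.026 without MGE (-0.21 to 0.026 over the libraries left out), and neither was past the threshold. The LGE median percent retained moved to 3.92% with thinning and to 3.94% at a Dcx limit of 2.0. The percent retained of Ptprz1 in CTX reversed to 114% with no upper gene limit. Over all genes, libraries and alternatives, the Hes5-positive level left its counting interval in 114 cases and stayed within it in 174. The percent retained left its interval in 54 cases beside this 1 reversal, and stayed within it in 233. Counting each cell equally was chosen after seeing the data. The causes were not tested. Samples of different regions could not be paired, because each region has 1 sample and the replicate numbers pair nothing. The stage and cycle tests compared classes of cells within each library, with the library as a block. At this depth, UMI counts under about 10 per class limit Tnc in all regions. In high-Dcx cells they also limit Vcam1 in LGE (3 UMIs) and CTX (5) and Ednrb in CTX (7). The late steps are limited in CTX, and for single genes in the eminences as well. Slc1a3, for example, had 2 UMIs in MGE and 1 in CGE at step 6.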
